A study of Mus musculus with 4 samples.

Results

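Beta cells caught in the cell cycle were singled out in single-cell RNA profiles of mouse pancreatic islets. Every RNA molecule was counted once by its barcode, the unique molecular identifier (UMI). Members were chosen by measured UMIs. A cell counted as a proliferating beta cell where Ins1 and Ins2, the insulin genes, held at least 10% of its UMIs, Gcg (glucagon) and Sst (somatostatin) each held under 1%, and at least 4 of the 6 genes Mki67, Top2a, Cenpf, Birc5, Cdk1 and Ube2c had at least 1 UMI. The rule chose 191 of 18612 cells in all, out of 11268 beta cells by the same hormone limits. They were set beside the 10450 beta cells with none of the 6 markers, called marker-free here. The 197, 171, 159 and 100 beta cells with 1 to 3 markers entered neither set.

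All islets came from C57BL/6 mice, recovered overnight in culture and were dispersed with trypsin. The 2 wild type libraries came from Sel1Lf/f mice, whose Sel1L alleles are flanked by sites for Cre recombinase, and the 2 knockout libraries from Sel1LIns1 mice, in which Cre from the insulin gene Ins1 deletes Sel1L in beta cells. SEL1L is the partner of the ubiquitin ligase HRD1 in the degradation of misfolded proteins of the endoplasmic reticulum (ER), called ERAD. The sample labels give 7 weeks of age and the series text 5. No library held Cre with intact Sel1L, so Cre and the deletion cannot be told apart, and the labels do not say whether replicates were separate animals, so p-values measure only the spread between these libraries. Sel1l itself stood at 35.4 and 30.9 CPM (counts scaled to a common total of UMIs) in wild type members, with 44.4 and 33.4 CPM in knockout members (log2 change -0.33, SE 0.18, edgeR adjusted p = 0.271; scaled by library size only, the change was 0.27), a value from the 3′ end of the transcript that does not check the deletion.

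A dividing cell copies its DNA in S phase under genes driven by E2F factors, then passes G2 and mitosis under genes driven by the MuvB complex with B-MYB and FOXM1. Beta cells divide mostly in young animals and rarely later. D-type cyclins with CDK4 carry them into the cycle, the inhibitors p18, p21 and p27 hold them back, and prolactin, growth factor and insulin signals promote division.

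The 6 markers that chose the cells are late genes of this kind. Promoters of late genes often carry the cell cycle genes homology region (CHR) and CCAAT boxes, so the 150 bases before each RefSeq start (GRCm38.p6) are shown, with matches to TTTGAA or TTCGAA (CHR) and to CCAAT on either strand in capitals. Mki67 lies on the minus strand at chr7:135716380-135716529, Top2a on the minus strand at chr11:99024190-99024339, Cenpf on the minus strand at chr1:189688087-189688236, Birc5 on the plus strand at chr11:117849087-117849236, Cdk1 on the minus strand at chr10:69352913-69353062 and Ube2c on the plus strand at chr2:164769779-164769928.
Mki67: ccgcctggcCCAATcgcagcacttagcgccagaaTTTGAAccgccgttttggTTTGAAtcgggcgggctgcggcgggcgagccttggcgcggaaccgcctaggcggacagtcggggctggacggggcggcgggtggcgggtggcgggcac
Top2a: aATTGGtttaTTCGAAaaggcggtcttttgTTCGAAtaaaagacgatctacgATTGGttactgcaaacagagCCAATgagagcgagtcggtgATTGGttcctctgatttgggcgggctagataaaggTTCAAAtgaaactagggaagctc
Cenpf: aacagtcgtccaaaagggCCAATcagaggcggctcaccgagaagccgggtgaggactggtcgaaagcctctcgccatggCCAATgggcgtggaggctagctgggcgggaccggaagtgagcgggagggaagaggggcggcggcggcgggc
Birc5: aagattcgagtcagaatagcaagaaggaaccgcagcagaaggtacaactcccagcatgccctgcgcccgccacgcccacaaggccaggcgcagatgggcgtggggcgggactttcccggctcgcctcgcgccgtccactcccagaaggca
Cdk1: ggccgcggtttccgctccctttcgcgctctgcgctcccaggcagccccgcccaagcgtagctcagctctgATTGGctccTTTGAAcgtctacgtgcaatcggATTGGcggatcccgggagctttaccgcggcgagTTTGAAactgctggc
Ube2c: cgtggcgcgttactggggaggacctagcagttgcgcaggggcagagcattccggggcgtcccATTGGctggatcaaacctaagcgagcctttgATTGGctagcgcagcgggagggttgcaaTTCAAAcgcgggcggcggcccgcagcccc
In these windows Mki67 and Cdk1 held 2 CHR matches each, Top2a held 3 and Ube2c held 1, beside 1, 2, 4 and 2 CCAAT matches. Cenpf held 2 CCAAT matches and no CHR match, and Birc5 held neither. In the 250 bases before the start, a CHR match stood in 13.1% of the promoters of 13635 genes of the count tables, a CCAAT match in 35.7% and both in 5.04%. Of 571 promoters of other genes more than 2-fold higher in proliferating cells of all 4 libraries, 21.4% held a CHR match, 53.6% a CCAAT match and 13.3% both. For the 38 mitosis genes with a promoter in the table these shares were 31.6%, 73.7% and 28.9%, and for 22 beta cell identity genes 9.09%, 45.5% and 0%. These are matches of letters, not sites of binding.

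Most members held all 6 of the markers that chose them. In wild type 1, 3442 beta cells had 0 markers, 11 had 2, 7 had 3, 9 had 4, 10 had 5 and 67 had all 6. In knockout 2, 1276 had 0, 5 had 2, 2 had 3, 2 had 4, 1 had 5 and 12 had all 6. All 4 libraries had their fewest cells between 3 and 5 markers. Just inside the limit, cells with 4 markers held a median of 13, 10, 33 and 13.5 marker UMIs, and just outside it cells with 3 held 7, 4.5, 10 and 17. The limit passed through a thinly filled range, and in knockout 2 the 2 cells outside it held 8 and 26 marker UMIs and the 2 inside 9 and 18.

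**Figure D1:**
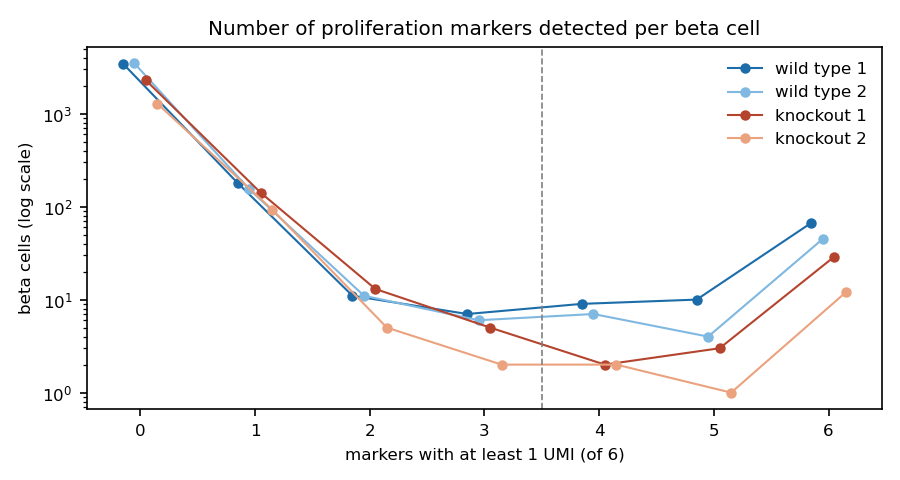
Beta cells (log axis) by the number of the 6 markers with at least 1 UMI, 1 line per library; the dashed line is the limit of the rule. Counts fall from 3442 marker-free cells in wild type 1 to 7 with 3 markers and rise again to 67 with all 6.

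The single markers were held by nearly all members. Mki67, whose protein coats mitotic chromosomes, was found in 85 of 86, 56 of 56, 34 of 34 and 15 of 15 cells, and Cdk1, the kinase that starts mitosis, in 77 of 86, 50 of 56, 30 of 34 and 13 of 15. Mki67 stood at 240 and 249 CPM in the wild type and 447 and 522 CPM in the knockout libraries. Ube2c, the ubiquitin-conjugating enzyme of the anaphase-promoting complex, stood at 498, 584, 456 and 564 CPM. These genes chose the cells, so their levels describe the members and compare nothing. Also as a description only, Mki67 held 6.09, 6.32, 7.86 and 9.76 of every 10000 UMIs outside Ins1 and Ins2 in the 4 libraries. Top2a, the topoisomerase that untangles DNA before division, held 8.53, 7.80, 9.10 and 10.4, and Ube2c 12.6, 14.9, 8.02 and 10.5. These values compare no genotypes. In alpha cells, which are mostly not dividing, Mki67 was found in 0.452%, 0.857%, 0.816% and 2.17% of cells, against 4.30%, 3.26%, 4.66% and 4.89% of beta cells, at median depths of 17661, 18856, 25960 and 26736 UMIs in alpha and 46913, 49879, 43918 and 51227 in beta cells.

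Proliferating cells were 86 of 3725 beta cells in wild type 1 (2.31%, exact 95% binomial interval 1.85 to 2.84), 56 of 3683 in wild type 2 (1.52%, 1.15 to 1.97), 34 of 2469 in knockout 1 (1.38%, 0.956 to 1.92) and 15 of 1391 in knockout 2 (1.08%, 0.605 to 1.77). The intervals cover counting error only. Both knockout libraries lay below both wild type libraries, with means of 1.23% ± 0.211 (SD, n = 2) against 1.91% ± 0.557. Beta cells with at least 1 marker went the other way, at 7.60% and 6.16% for wild type against 7.82% and 8.27% for knockout libraries, without overlap. So did alpha cells (3.52% and 4.18% against 5.31% and 5.57%) and delta cells (2.55% and 3.54% against 5.48% and 5.22%). Outside insulin, marker-free beta cells held medians of 14626 and 15428 UMIs in wild type against 25910 and 27817 in knockout libraries. No thinned value was obtained for the share with at least 1 marker, and the part of depth was not tested. For the share of proliferating cells the exact two-sided permutation test gave p = 0.33, the smallest it allows for 2 libraries against 2. The design cannot call this share different. The order did not hold in every setting. With all cells thinned to 10000 UMIs the shares were 1.87%, 1.12%, 1.19% and 0.882%, and with called doublets removed 2.14%, 1.34%, 1.45% and 1.12%. In both the genotypes overlapped, and the number of doublets to remove was set in advance by library size. Thinned to 5000 UMIs outside Ins1 and Ins2, the shares were 1.91%, 1.32%, 1.19% and 0.956%.

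Among other endocrine cells the same 4 markers were rarer. Alpha cells (Gcg at least 10% of UMIs) held 1 of 1107, 0 of 933, 2 of 735 and 2 of 323, where 0 of 933 allows a share of up to 0.322%. Delta cells held 2 of 274, 0 of 339, 0 of 146 and 0 of 115, and the 0 counts allow up to 0.885%, 2.05% and 2.61%. The beta share was higher than the alpha and the delta share in 4 of 4 libraries, by 1.33 and 1.39 percentage points on average, and the exact sign-flip test gave p = 0.125 for each (adjusted over the 2 comparisons p = 0.125), the smallest it allows. Alpha cells had fewer UMIs, and the part of depth in this difference was not tested.

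Members held more RNA molecules than marker-free cells. Their median UMI totals were 61947, 63803, 74510 and 74499, against 46742, 49545, 43187 and 50669 in marker-free cells, higher in all 4 libraries. Outside insulin the medians were 23922, 25962, 40451 and 41955 UMIs against 14626, 15428, 25910 and 27817. Beta cells with 1 to 3 markers held median totals of 48091, 52250, 50609 and 56287 UMIs, also above marker-free cells. The rule asks for detected markers in members and for none in marker-free cells, and its part in these gaps was not tested. The mitochondrial share was 1.74%, 1.43%, 2.81% and 2.88% in members and 1.74%, 1.70%, 3.67% and 3.58% in marker-free cells, so members had the lower share in wild type 2 and both knockout libraries. Doublets were called as the highest Scrublet scores of each library, to a number fixed at 0.8% per 1000 cells. They were 12 and 10 wild type members and 0 and 0 knockout members. Called doublets were 14.0% and 17.9% of wild type members, beside 7.15% and 6.48% of wild type and 4.96% and 3.84% of knockout marker-free cells. The number called was thus set by library size (5951, 5841, 4337 and 2483 cells), and its rates are not compared between genotypes. Between 1 and 9 cell barcodes were shared by any 2 libraries, 35 over all pairs.

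Most members held more UMIs of a mitosis list than of a replication list, which differ in their number of genes. Over lists of 45 genes of mitosis and G2 and 40 genes of DNA replication and S phase, neither holding the 6 markers, mitosis UMIs outnumbered replication UMIs in 83 of 86, 56 of 56, 32 of 34 and 15 of 15 members. The median member held 104.4, 106.6, 106.4 and 122.2 mitosis-list UMIs per 10000 outside insulin, and 21.4, 16.6, 29.8 and 16.4 replication-list UMIs. Marker-free cells had medians of 3.31, 3.80, 2.82 and 2.76 for mitosis and 3.96, 4.02, 3.99 and 4.14 for replication. Single members ranged widely, from 6.90 to 228.7 mitosis UMIs and from 1.26 to 84.2 replication UMIs per 10000 in wild type 1. The markers that chose the cells peak late in the cycle, and how many S-phase cells the rule missed was not tested. The median mitotic share of both lists together reached 80.5% and 83.6% for wild type members, against 74.9% and 78.2% for knockout members. Shares of single members ran from 28.1% to 98.5% in wild type 1 and from 43.3% to 96.1% in knockout 1. The medians of each list given above overlapped between the genotypes, and the difference in share was not tested.

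**Figure D2:**
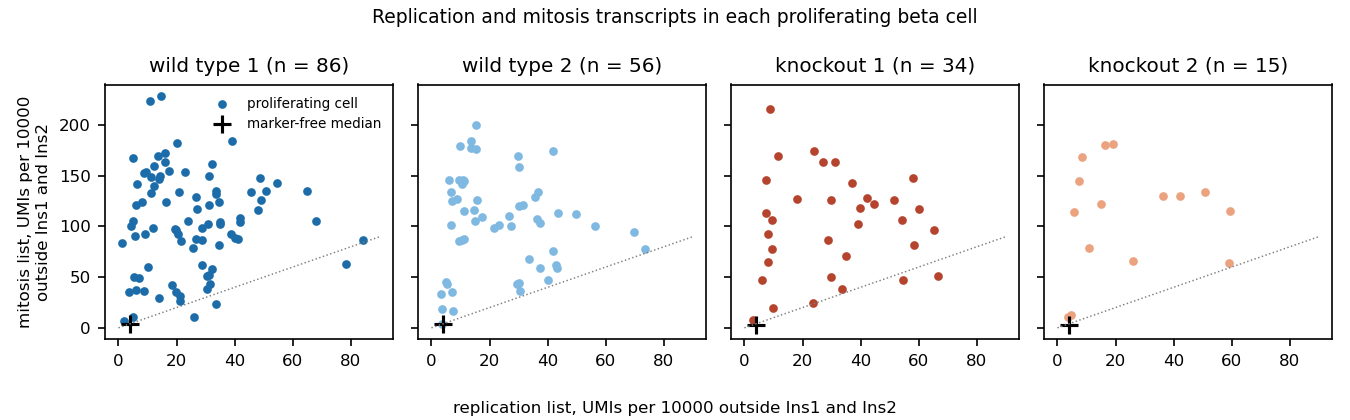
Each point is 1 proliferating beta cell, with UMIs of the replication list (x axis) and of the mitosis list (y axis) per 10000 UMIs outside Ins1 and Ins2; the cross is the median marker-free cell and the dotted line marks equal values. Nearly all members lie above the line, and 3 wild type 1 and 2 knockout 1 cells lie below it.

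Against marker-free cells of the same library, and as a description since these genes are part of what separates the 2 sets, 731 of 18760 genes (3.9%) were more than 2-fold higher in members of all 4 libraries and 41 (0.219%) more than 2-fold lower, on the log2(CPM + 1) scale. With 5 CPM added the counts were 465 and 7. The higher genes were led by Stmn1, a microtubule-destabilising protein, at 1042, 939, 1113 and 1140 CPM in members and 2.17, 1.69, 2.22 and 2.50 CPM in marker-free cells. Next came the centromeric histone Cenpa, the mitotic kinase Pbk, the spindle proteins Hmmr and Tpx2, the kinetochore motor Cenpe, the anaphase activator Cdc20, the spindle protein Nusap1, the CDK-binding protein Cks2 and Cdca3. Cdc20 stood at 108, 146, 161 and 206 CPM in members and at no more than 0.223 CPM in marker-free cells of any library. Levels of single genes are not compared with each other here, as 3′ counts carry no length scale.

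Replication and mitosis genes were high together in members of every library. Of the 40 replication genes 39 were more than 2-fold higher in all 4 libraries (median log2 difference 2.70, against 0.00 over all genes), the exception being Ung, a uracil glycosylase. Of 45 mitosis genes 44 were (median 5.31), all but the securin gene Pttg1 at 11.9, 10.7, 8.71 and 14.2 CPM against 6.72, 6.40, 12.1 and 10.6. Among replication genes, Mcm6 of the helicase was 17.4, 16.1, 27.3 and 25.0 CPM against 2.94, 2.29, 2.79 and 2.84, and the sliding clamp Pcna was 36.2, 33.3, 66.9 and 56.8 CPM against 7.37, 7.41, 11.8 and 12.2. All 20 chromatin and cytoskeleton genes of dividing cells were more than 2-fold higher (median 3.18), among them the histone variant H2afz and the chromatin proteins Hmgb2 and Hmgn2.

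Genes that open the cycle were mixed. Of 30 cyclins, CDKs and inhibitors, 17 were more than 2-fold higher in all 4 libraries and none lower, and the D cyclins were not among the 17. Ccnd2, the main D cyclin of beta cells, was 225, 205, 322 and 236 CPM in members and 281, 248, 426 and 420 CPM in marker-free cells, lower in all 4 libraries. Ccnd1 was 44.1, 34.7, 72.5 and 70.1 CPM against 49.3, 39.6, 95.7 and 88.6. The inhibitor gene Cdkn2c, which encodes p18, was 173, 183, 159 and 150 CPM in members and 5.78, 5.94, 7.35 and 7.34 CPM in marker-free cells. Cdkn1a, which encodes p21, was 123, 150, 156 and 135 CPM against 33.6, 39.9, 43.1 and 50.9. Cdkn1b, which encodes p27, was 51.5, 43.2, 80.8 and 70.1 CPM against 23.2, 23.1, 44.8 and 41.0. All 3 inhibitors were thus higher in dividing than in marker-free cells of each library. Foxm1, the transcription factor of late genes, was 21.4, 18.8, 39.6 and 37.6 CPM in members and under 0.154 CPM, or at it, in marker-free cells. Of 25 p53 targets and DNA damage genes 4 were more than 2-fold higher: the checkpoint kinases Chek2 and Atr and the repair genes Brca1 and Brca2.

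Many beta cell genes were somewhat lower in members. Of 30 identity genes none differed more than 2-fold in all 4 libraries, 17 were lower in all 4 and 3 higher (median -0.26), while of all 18760 genes 3304 were lower in all 4 and 4023 higher. Slc2a2, the glucose transporter, was 55.3, 33.1, 17.0 and 10.8 CPM in members against 95.5, 97.8, 35.9 and 35.2. Pdx1, a transcription factor of the beta lineage, was higher in members, at 75.4, 78.7, 76.0 and 65.9 CPM against 57.6, 56.8, 54.6 and 47.4. Insulin held a median of 61.2% and 61.9% of UMIs in wild type members against 68.3% and 68.8% in marker-free cells, and 43.9% and 43.4% in knockout members against 39.6% and 43.7%. Genes more than 2-fold lower in members included Aldoa, a glycolytic aldolase, at 47.2, 57.9, 43.6 and 28.4 CPM against 170, 167, 189 and 170, the defensin Defb1, the sialidase Neu1, Crebrf and Nupr1. Nupr1, a stress-induced chromatin protein, was 17.6, 53.8, 436 and 396 CPM in members and 46.2, 117, 1042 and 1284 CPM in marker-free cells. Of 34 mitogen signalling genes only Mycn passed the 2-fold limit in all 4 libraries.

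**Figure D3:**
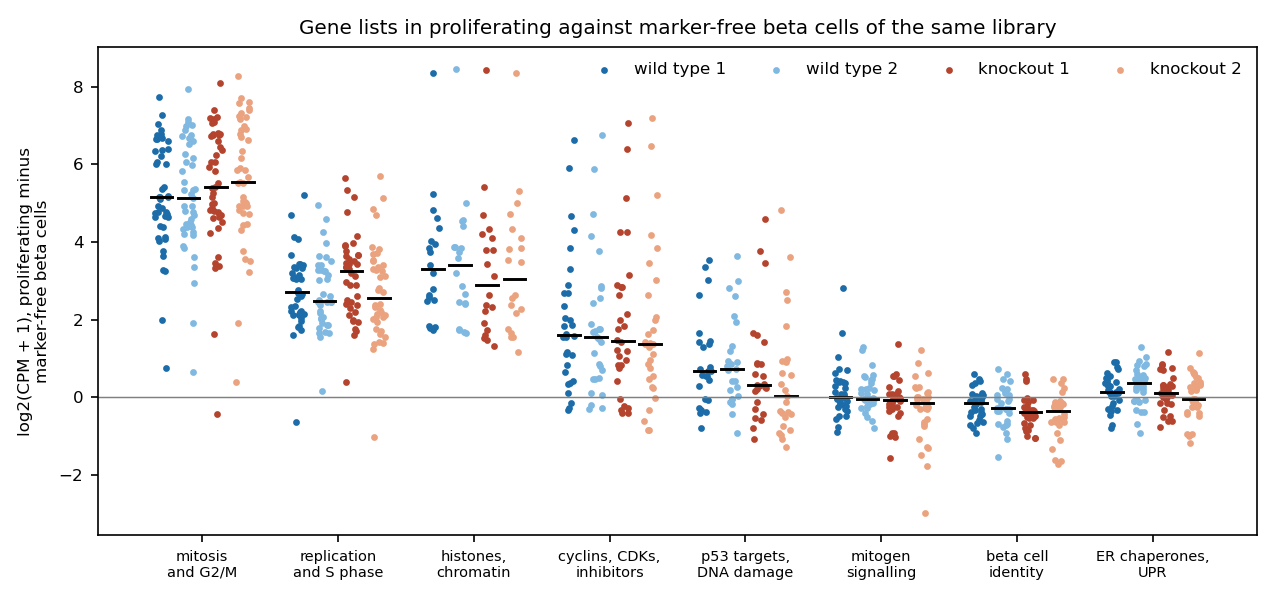
Difference of log2(CPM + 1) between proliferating and marker-free beta cells of the same library, 1 point per gene and library, with the median of each list as a black bar. The mitosis list has medians of 5.16, 5.14, 5.42 and 5.55, and the beta cell identity list of -0.15, -0.26, -0.38 and -0.35.

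The question of how knockout and wild type dividing cells differ was put to edgeR's quasi-likelihood test on UMIs summed over members of each library (5278031, 3660917, 2524846 and 1198180 UMIs), with TMM scaling and Benjamini-Hochberg adjusted p under 0.05 as the threshold. Of 33 ER chaperone genes 22 were called higher in knockout members, of 27 ERAD genes 10 were called higher, and of 27 beta cell identity genes 18 were called lower. Of 9767 genes tested, 496 (5.08%) were higher and 530 (5.43%) lower. In marker-free cells the test called 2986 (20.1%) higher and 3096 (20.8%) lower of 14887, and 1719 of 9381 when their sums were thinned to the totals of the members. Changes are relative to the median gene: with library size only, the median gene of the members stood at 0.61 (log2), 4874 genes were called and 97.5% of them were higher. Without wild type 1 the count was 641, and without wild type 2 it was 557.

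Replication genes were called higher at a share near that of all genes (5.08%). Of 38 tested 2 rose, Fen1 (0.66, SE 0.17, adjusted p = 0.0216) and Clspn (0.65, SE 0.18, adjusted p = 0.0264), and none fell (median 0.08, against 0.01 over all genes). Fen1 trims the ends of copied DNA fragments, and Clspn carries the replication checkpoint. Of 45 mitosis genes 1 fell, the kinetochore gene Spc25, at 484 and 512 CPM in wild type against 493 and 501 CPM for knockout members (-0.60, SE 0.12, adjusted p = 0.00328). Spc25 overlapped on the CPM scale and stood at 0.00 with library size only, where the median of the mitosis list was 0.52 and 37 of its 45 genes were called higher. Of 27 cyclins, CDKs and inhibitors tested 2 rose and 2 fell. Ccne1, the cyclin of S phase entry, was at 2.84 and 1.64 CPM in wild type members against 13.5 and 8.35 CPM in knockout members, with no overlap (1.70, SE 0.40, adjusted p = 0.0108). Its counts were low, and 1 cell held 6 of 15 UMIs in wild type 1 (a called doublet), 4 of 6 in wild type 2, 9 of 34 in knockout 1 and 7 of 10 in knockout 2. Without the highest cell of each library Ccne1 was 1.72, 0.555, 10.2 and 2.73 CPM, closer but still without overlap. Wee1, the kinase that holds back CDK1, rose by 0.86 (SE 0.23, adjusted p = 0.0216). Cdkn2c fell by 0.80 (SE 0.12, adjusted p = 4.2e-04) and Cdkn1a by 0.49 (SE 0.14, adjusted p = 0.0302), the latter at 0.11 with library size only. In that scaling 19 of the 27 genes were called higher and none lower, so neither fall was called. Ccnd2 (-0.21, adjusted p = 0.351) and Ccnb1 (-0.39, adjusted p = 0.0976) were not called. Of 20 chromatin genes 8 fell and none rose (median -0.23), led by Hmgn2 (-0.85, SE 0.12, adjusted p = 2.4e-04) and the nuclear transport GTPase Ran (-0.69, SE 0.12, adjusted p = 0.00120). With library size only, 10 of the 20 were called higher and none lower (median 0.37), so these falls are relative to the median gene. Without the highest cell of each library, Ran was 303 and 322 CPM in wild type and 304 and 272 CPM in knockout members, which overlap.

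Most ER chaperone genes were higher in knockout members. Hspa5, the ER chaperone BiP (GRCm38 chromosome 2, 34771970 to 34777547), stood at 215 and 273 CPM in the wild type and 928 and 907 CPM in the knockout libraries. The genotypes did not overlap, with a rise of 1.32 (log2, SE 0.14, adjusted p = 9.3e-06). Of 33 chaperone and unfolded protein response genes, all tested, 22 rose, 2 fell and 9 were not called (median 0.79, against 0.01 over all genes). Sdf2l1, a partner of BiP, went from 58.2 and 79.2 to 427 and 378 CPM, Creld2 from 28.2 and 30.3 to 157 and 117 CPM, and Kdelr3, a receptor that returns ER proteins from the Golgi, from 3.03 and 3.55 to 36.8 and 28.4 CPM. None of these overlapped between the genotypes. The oxidase genes Ero1l and Ero1lb, named after their values were seen, fell by 0.77 and 0.68. Of 27 ERAD genes 10 rose and none fell (median 0.34), led by Derl3, a derlin of the ERAD channel (chromosome 10, 75893413 to 75895941), at 1.89 and 1.91 CPM in wild type members, against 67.3 and 47.6 CPM in knockout members (4.35, SE 0.27, adjusted p = 5.2e-08). Herpud1 rose by 1.18 and the mannose-trimming Edem1 by 1.01. Of 23 genes of the integrated stress response 4 rose and 2 fell (median 0.09), beside 5.08% higher and 5.43% lower over all genes. Nupr1 rose (SE 0.29, adjusted p = 6.1e-06) from 17.6 and 53.8 to 436 and 396 CPM, and Gdf15, a secreted stress protein, rose by 1.45, while Psph of serine synthesis fell by 1.11.

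Most identity genes tested were lower in knockout members. Of 27 tested, 18 fell and none rose (median -0.70), and with library size only, 9 fell and 4 rose (median -0.10). Mafa, the maturity factor (chromosome 15, 75745490 to 75748228), stood at 145 and 149 CPM in wild type members, against 26.5 and 33.4 CPM in knockout members, far apart, with a fall of 2.93 (SE 0.16, adjusted p = 1.4e-08). Slc2a2 went from 55.3 and 33.1 to 17.0 and 10.8 CPM (-2.19, SE 0.26, adjusted p = 4.2e-05) and Ucn3, the peptide of mature beta cells, from 89.2 and 71.6 to 26.1 and 41.7 CPM. Both kept the genotypes apart. Prlr, the prolactin receptor, was 162 and 178 CPM against 72.9 and 51.7 (SE 0.15, adjusted p = 3.5e-07), and Pcsk1, which cuts proinsulin, fell by 1.33. Nkx6-1, at 96.6 and 96.2 CPM against 111 and 96.8, fell by 0.48 relative to the median gene (adjusted p = 0.0275), and its change was 0.12 with library size only. Ins1 and Ins2, which chose the cells, held 183595, 180166, 72261 and 86390 CPM and 421418, 426397, 359227 and 378093 CPM, and what the Cre inserted at Ins1 does to that gene cannot be told apart.

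Among other named genes, Cd24a, a surface glycoprotein, stood at 9.66 and 10.1 CPM in wild type members, against 68.9 and 70.1 CPM in knockout members (2.22, SE 0.18, adjusted p = 7.9e-07). The long noncoding RNA Snhg18 went from 6.63 and 8.47 to 60.2 and 48.4 CPM, and the vesicle GTPase Rab3d rose by 1.36. Dapl1 (146 and 181 against 19.8 and 52.6 CPM), the phosphatase inhibitor Ppp1r1a, the peroxidase Gpx2, the transthyretin gene Ttr and the annexin partner S100a10 fell by 2.93, 2.37, 2.13, 1.81 and 1.75. Pyy, the peptide YY gene, rose by 2.41, from 623 and 924 to 9997 and 2548 CPM, without overlap. In wild type 2, 1 member held 74.8% of the Pyy and 94.5% of the Ppy UMIs. Ppy, the pancreatic polypeptide gene, overlapped between the genotypes (430 and 3280 against 7454 and 702 CPM, adjusted p = 0.732). Of 11 genes of immature or dedifferentiated beta cells tested, 6 rose and 1 fell (median 1.21), beside 5.08% higher and 5.43% lower over all genes. Aldh1a3, a marker of failing beta cells, had 2 and 0 UMIs over the wild type members against 20 and 7 over the knockout members (4.22, SE 0.68, adjusted p = 6.96e-04). Neurog3, which specifies endocrine progenitors, was too low to test in members (0, 0, 1 and 2 UMIs), with 7.26 and 5.76 CPM in knockout marker-free cells.

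Signals for division moved in both directions. Of 19 mitogen signalling genes tested 5 rose and 3 fell (median 0.05), beside 5.08% higher and 5.43% lower over all genes. With library size only, 9 rose and 3 fell (median 0.65). Prlr and the insulin-like growth factor receptor Igf1r (70.3 and 93.4 against 53.9 and 35.1 CPM, -1.41, SE 0.19, adjusted p = 1.6e-04) fell, and so did the immediate early gene Nr4a1. Cish, a target and inhibitor of STAT5, rose by 1.61. Areg, the growth factor amphiregulin, had no UMI in the wild type members, and 53 and 9 UMIs (21.0 and 7.51 CPM) in the knockout members. The edgeR adjusted p was 5.1e-05. In knockout 1 a single cell held 30 of the 53 UMIs, and no value was obtained without knockout 1. In marker-free cells Areg reached 64.4 and 65.7 CPM in the knockout libraries, from 0.141 and 0.201 CPM. The difference between its changes in the 2 states was not called (adjusted p = 0.864). Of 22 p53 and DNA damage genes tested 1 rose and 4 fell (median -0.15, or 0.45 with library size only, where 8 rose and 2 fell). Plk3, a stress kinase, was 9.47 and 8.47 against 1.98 and 0.835 CPM, and Phlda3, an inhibitor of AKT, was 29.4 and 24.6 against 18.6 and 12.5 CPM (-1.32, SE 0.21, adjusted p = 6.8e-04). Single cells held 53 of 155 Phlda3 UMIs in wild type 1, 45 of 90 in wild type 2 (a called doublet) and 16 of 47 in knockout 1. Without its highest cell, Phlda3 was 19.5 CPM in wild type 1, 12.5 in wild type 2 and 12.7 in knockout 1, and the genotypes overlap.

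**Figure D4:**
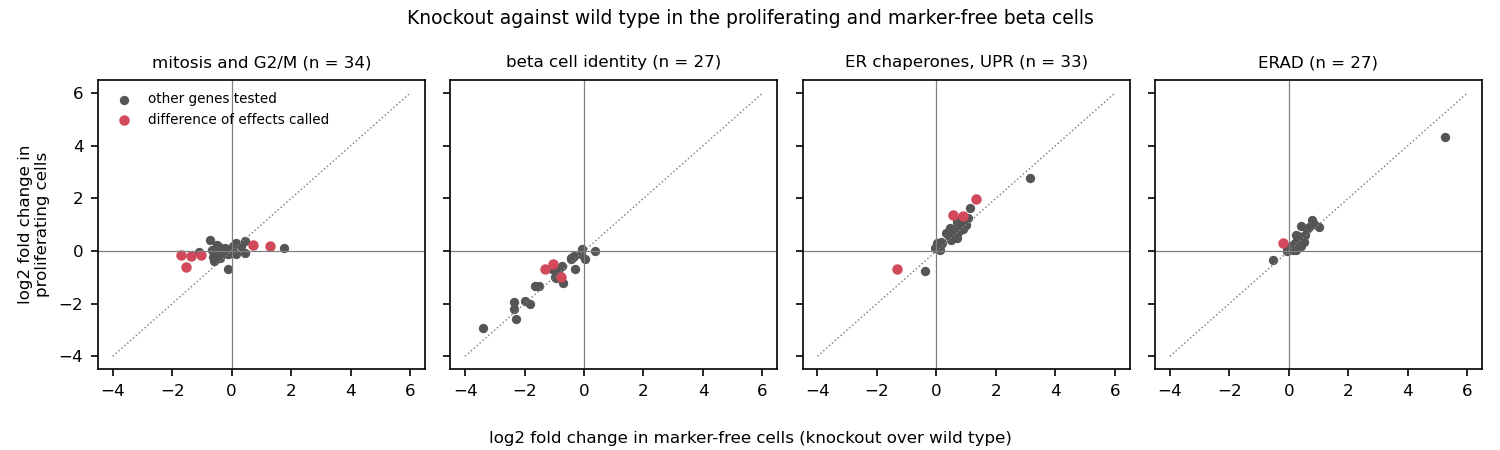
Log2 fold change of knockout over wild type in marker-free cells (x axis) and in proliferating cells (y axis), 1 point per gene tested in both, with equal changes on the dotted line and genes whose difference of changes was called in red. Most ER chaperones lie up and right, with Hspa5 at 1.32 in proliferating cells, most identity genes lie down and left, with Mafa at -2.93, and the mitosis list has a median of -0.08 on the y axis.

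Whether the knockout changed dividing cells otherwise than marker-free ones was tested as an interaction of state and genotype with the library as a block. Most changes were not called different: 178 of 13916 genes (1.28%) were, with 74 higher and 104 lower in proliferating cells. The split depended on the scaling, at 89 and 79 with RLE normalization and 45 and 1050 with library size only. DESeq2 called 49, 33 higher and 16 lower, and the counts were 88 without wild type 1 and 92 without wild type 2. The mitosis list held 4 higher and 2 lower of 45. None of 40 replication genes and none of 30 cyclins, CDKs and inhibitors was called, which at a share of 1.28% over all genes sets neither list apart.

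Fdps and Idi1, enzymes of cholesterol synthesis, were among the 5 higher genes with the smallest p. Fdps, the synthase of farnesyl diphosphate (chromosome 3, 89093588 to 89101959), was 55.9, 62.3, 138 and 129 CPM in members and 58.9, 71.7, 78.9 and 75.5 CPM in marker-free cells. Only the knockout members stood high. Its change was 0.58 in members and -0.68 in marker-free cells, a difference of 1.19 (SE 0.13, adjusted p = 8.8e-11). These changes are relative to the median gene: with library size only they were 1.18 in members and 0.24 in marker-free cells, where CPM was higher in both knockout libraries, and the difference was 0.93. Idi1, which acts just before it, differed by 1.48 (SE 0.21, adjusted p = 2.2e-07). Some other genes of this route were looked up after these values were seen: Hmgcs1 differed by 1.10, Msmo1 by 1.03, Cyp51 by 0.94, Insig1 by 0.88, Fdft1 by 0.84 and Sqle by 0.57, each of these 6 with an edgeR adjusted p of 0.0274 or less. Hmgcs1 was 29.9, 32.2, 65.7 and 80.1 CPM in members and 27.8, 27.3, 34.6 and 37.1 CPM in marker-free cells, again highest in knockout members.

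Of 33 chaperone genes 4 were called higher for the difference and none lower, beside 74 higher and 104 lower of 13916 over all genes (1.28% called). With library size only 1 chaperone gene was higher and 3 lower, beside 45 higher and 1050 lower over all genes. Hyou1 differed by 0.76 (SE 0.15, adjusted p = 5.7e-04), Sdf2l1 by 0.58 (SE 0.11, adjusted p = 5.6e-04) and Hspa5 by 0.38 (SE 0.09, adjusted p = 0.00978), and Ero1lb by 0.61. The Hspa5 difference was 0.12 with library size only (adjusted p = 0.496) and 0.36 without wild type 1 (adjusted p = 0.284), neither of them called. Hspa5 was 195, 212, 726 and 698 CPM in marker-free cells, and members stood above marker-free cells of the same library in wild type and knockout alike. Nnat, the imprinted neuronatin gene, was 156, 75.7, 24.6 and 69.3 CPM in members and 66.2, 23.1, 2.47 and 2.88 CPM in marker-free cells. It fell less in members, by a difference of 2.76 (SE 0.20, adjusted p = 1.0e-19). Nnat lies inside Blcap on the opposite strand, and the strand setting of the counting is not given in the sources used here. Tmsb15b2 (1.36) has near-identical copies, so its counts are uncertain. Spc25 (0.86) fell less in members than in marker-free cells, where it was 49.5, 66.2, 39.7 and 35.5 CPM.

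The opposite pattern was a smaller rise or a larger fall in dividing cells. Cks1b, the CDK-binding subunit (chromosome 3, 89415472 to 89418383), was 242, 257, 410 and 457 CPM in members and 7.85, 8.99, 40.0 and 37.7 CPM in marker-free cells. It rose in knockout marker-free cells by 1.29 and was not called in members (0.20), a difference of -1.16 (SE 0.11, adjusted p = 1.5e-13). Fkbp2, an ER prolyl isomerase, was 321, 324, 515 and 486 CPM in members against 121, 136, 411 and 376, a difference of -0.72 (SE 0.10, adjusted p = 7.2e-08). Members thus stood above marker-free cells of the same library for both genes, in wild type and knockout alike. Cks1b CPM in members was higher in both knockout than in both wild type libraries, while its change of 0.20 is relative to the median gene. Nup133 of the nuclear pore was 7.39, 8.74, 31.7 and 10.8 CPM against 3.23, 3.12, 46.8 and 59.2 (-2.14, SE 0.29, adjusted p = 9.9e-08), and was not called by DESeq2 (adjusted p = 0.255). Phlda3 differed by -1.38 (SE 0.27, adjusted p = 5.6e-04), from the same sums in which single wild type cells held 53 of 155 and 45 of 90 UMIs. Among genes named after their values were seen, Txnip, an inhibitor of thioredoxin, was 61.8, 35.5, 175 and 119 CPM in members and 48.8, 39.6, 304 and 264 CPM in marker-free cells (-0.81, SE 0.13, adjusted p = 2.3e-05). The cytochrome oxidase subunit Cox6a2 was 16.5, 22.1, 27.7 and 19.2 CPM against 21.3, 40.3, 112 and 122 (-1.34, SE 0.20, adjusted p = 2.1e-06). Pyy (-0.91), Ppy (-1.30) and Rbp4 (-1.33) were called too. With at least 5 markers the difference was 0.036 for Pyy and 0.75 for Ppy, against the reported direction, and without wild type 2 it was 0.31 for Ppy. DESeq2 called neither (adjusted p = 0.829 and 0.995). For Rbp4, 1 called doublet held 45.9% of the UMIs of wild type 1 members, beside the single wild type 2 cell rich in Pyy and Ppy given above.

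**Figure D5:**
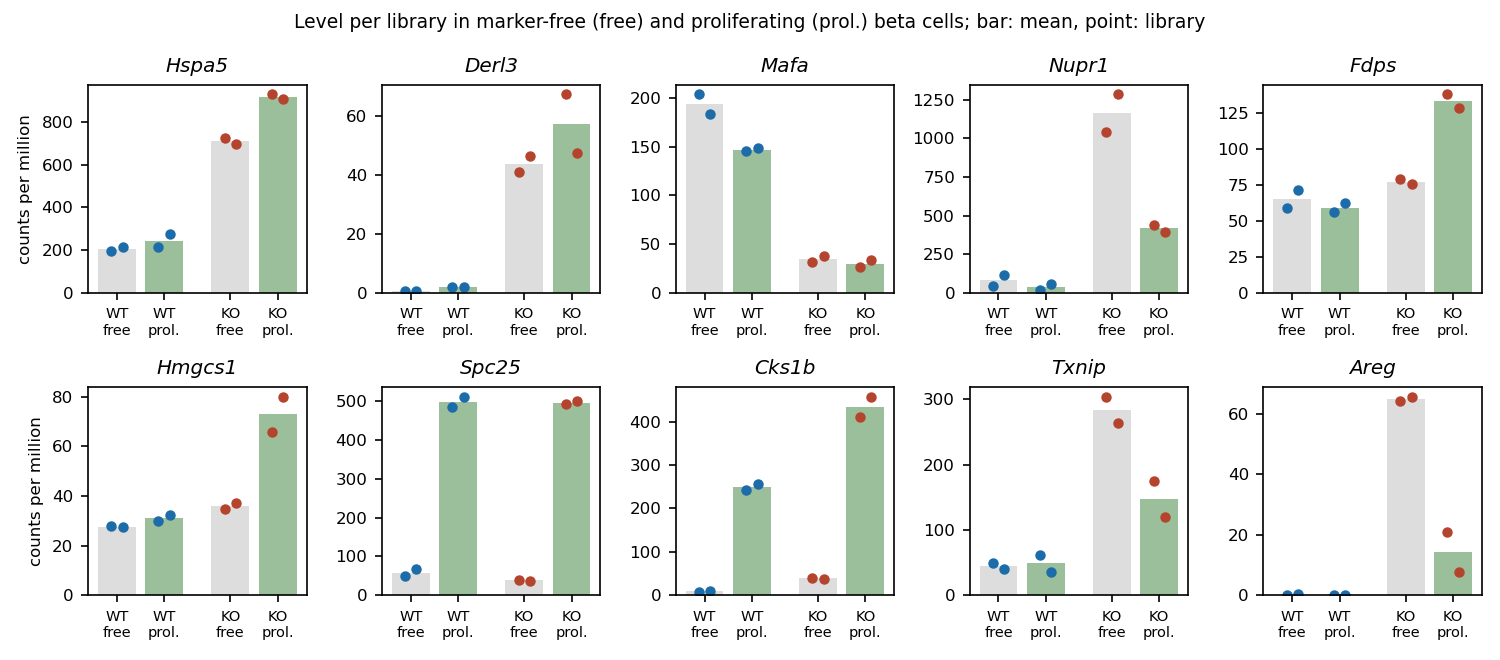
CPM of 10 genes in marker-free (free) and proliferating (prol.) beta cells of wild type (WT) and knockout (KO) libraries; bars are means of 2 libraries, points are libraries, and axes start at 0. Fdps and Hmgcs1 are highest in knockout proliferating cells, and Nupr1, Txnip and Areg are highest in knockout marker-free cells.

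Markers of other endocrine cells and of ducts were present in members. The pancreatic polypeptide (PP) cell list, Ppy and Pyy, summed to 1053, 4204, 17452 and 3250 CPM in members and 2468, 2334, 31814 and 17284 CPM in marker-free cells. The alpha cell list, which holds Gcg, summed to 573, 583, 448 and 328 CPM in members, beside 515, 512, 489 and 292 CPM. The delta cell list summed to 353, 65.3, 66.1 and 66.8 CPM, and only wild type 1 stood above its marker-free cells (102, 80.5, 109 and 70.4 CPM). The ductal list summed to 200, 184, 197 and 195 CPM, beside 221, 215, 277 and 258 CPM. Their part in the genotype differences was not tested. Lists of other cells were near 0. The mesenchymal list summed to 0.379, 0, 0 and 0.835 CPM, the acinar list to 0, 0, 0.396 and 1.67, the erythroid list to 0, 0, 1.98 and 0.835, and the endothelial list to 1.52, 8.74, 5.94 and 2.50 CPM. The macrophage list summed to 20.5, 82.5, 28.9 and 9.18 CPM in members and 31.7, 28.2, 33.6 and 29.2 in marker-free cells. In wild type 2 a single member, called a doublet, held 530 of the 540 Apoe and 215 of the 220 Cd74 UMIs. Apoe, the largest fall by the rule, was 3.79, 148, 2.38 and 3.34 CPM (-5.35, SE 1.30, adjusted p = 0.0135), and 2.78 CPM in wild type 2 without that cell, which overlaps with the knockout libraries. In wild type 1 another called doublet held 51.7% of the Sst UMIs of the members. Without called doublets 806 genes were called between the genotypes in members and 171 for the difference between states.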

How the data were processed

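Islet cells of 2 wild type and 2 knockout libraries were profiled by 10x Genomics 3′ single-cell sequencing. The authors deposited raw UMI counts per gene and cell, and Cell Ranger 3.0.0, Seurat 2.3.4 and mm10 are named per the submitters' processing notes; cell filters before deposit are not given in the sources used here. Library totals ran from 99156230 to 228515309 UMIs. Counts were summed per library and state and tested with edgeR 4.0.16 (R 4.3.3; TMM, quasi-likelihood, Benjamini-Hochberg), with DESeq2 1.42.0 as an alternative; the script was tested on simulated data. The genes of the selection rule stayed in the fits and in counts over all genes, and no test of theirs is reported. States were compared as log2(CPM + 1) without a test. Doublets were called with Scrublet (scanpy 1.11.5) as the highest scores of each library, to a number fixed at 0.8% per 1000 cells. They were kept, and left out as an alternative. Cells were thinned to 10000 UMIs or to 5000 outside insulin. Gene coordinates come from GENCODE vM21 and promoters from RefSeq. Named genes were the rule genes, a panel, the 10 largest called changes each way of at least 50 CPM without overlap, the 5 smallest interaction p-values each way, up to 3 called genes per list, and the 10 largest state differences each way; others are said to be named after their values were seen, also single list genes below the first 3. Members and lists were chosen with earlier results of these data known. Some genes looked up are not reported here.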

Additional observations from a re-analysis of the deposited data

Results flagged for a closer look

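In 14 named genes the knockout effect differed between proliferating and marker-free beta cells by a test of the difference itself (edgeR interaction, adjusted p under 0.05). The log2 effect in proliferating cells minus that in marker-free cells was 2.76 for Nnat, 1.36 for Tmsb15b2, 1.19 for Fdps, 0.86 for Spc25, 1.48 for Idi1, 0.50 for Nkx6-1 and 0.38 for Hspa5. It was -1.16 for Cks1b, -0.91 for Pyy, -0.72 for Fkbp2, -2.14 for Nup133, -1.33 for Rbp4, -0.27 for Iapp, the amyloid peptide gene, and -1.30 for Ppy. Of these, 10 were chosen for having the smallest p-values, so their sizes are those of extremes. DESeq2 called 10 of the 14, and not Pyy (adjusted p = 0.829), Nup133 (0.255), Iapp (0.331) or Ppy (0.995). With at least 5 markers Pyy (0.036) and Ppy (0.75) turned direction, and Nkx6-1 (0.24) and Hspa5 (0.12) were not called with library size only.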

How the results depend on the processing

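With library size only, 4874 genes were called in proliferating cells (1026 as reported), 12905 in marker-free cells (6082) and 1095 for the difference between states (178). DESeq2 called 364 in proliferating cells and 49 for the difference. A mean of at least 20 counts left 94 differences, and thinning the marker-free sums left 1719 calls in marker-free cells and 71 differences. With 5 CPM added, 472 genes passed 2-fold between the states in all 4 libraries (772 as reported). Leaving out 1 library gave 557 to 1262 calls in proliferating cells, 3892 to 5977 in marker-free cells and 88 to 220 differences, 824 to 884 genes between the states, and share differences from -1.08 to -0.29 percentage points. With library size only the change in proliferating cells was 0.12 for Nkx6-1 and 0.11 for Cdkn1a, opposite to the reported direction. With at least 5 markers the difference between states was 0.036 for Pyy and 0.75 for Ppy, also opposite, and leaving out 1 library put Ppy between -2.73 and 0.31. The cause was not tested.

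With the replicate number as a block (replicate block), 1150 genes were called in proliferating cells, 6212 in marker-free cells and 21 for the difference, where 7 of the 14 named genes passed. Same-numbered libraries did not deviate together over genes (correlation -0.0002 and 0.0079). This sets the difference between the wild type libraries against that between the knockout libraries, and cannot show whether same-numbered libraries were prepared together. Members numbered 15 in the smallest library, which limits what a low count can show.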
